A study of Mus musculus with 18 samples.

Results

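Bmi1, Hopx, Lrig1, Tert, Mex3a, Msi1, Prom1 and Sox9 are 8 genes used in the intestine to mark stem or progenitor cells that divide slowly or are held in reserve, and they were taken as a group of named genes by symbol. The identifiers in the count tables were matched to symbols of the mouse genome build GRCm38, and all 8 were found in both tables, among 43432 gene identifiers. The members were named as a list of marker genes and not by a threshold on measured values. They were followed in wild-type and Dlg1 knock-out cells at 2 and 14 days after tamoxifen. Dlg1 encodes a scaffold protein of the cell cortex that takes part in cell polarity.

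Most cell production in the intestinal crypt is attributed to rapidly cycling Lgr5-positive stem cells at the crypt base. Other crypt cells, found mainly just above the base, divide less often and can replace lost Lgr5-positive cells after injury. Bmi1, Hopx, Lrig1 and Tert were each proposed as markers of such cells, and Mex3a of a slowly cycling subset of Lgr5-positive cells. Msi1, Prom1 and Sox9 label wider sets of crypt stem and progenitor cells. Several of these transcripts are also present in Lgr5-positive cells.

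The samples were 18 libraries of sorted mouse intestinal stem cells, from animals aged 8 to 16 weeks, with 5000 to 10000 cells per sort. Every animal, the wild types included, had received tamoxifen, the drug that switches on an inducible recombinase. At 2 days (labelled 48 hours) there were 4 wild-type and 4 Dlg1 conditional knock-out libraries, and at 14 days there were 5 and 5. The labels give neither the recombinase line, the deleted exons, the sorting markers nor the strain, and they do not say whether each library was a separate animal, so p-values measure the spread between these libraries, which may be technical. The knock-out columns at 2 days carry the prefix Dmin, read here as the Dlg1-minus group. Each comparison at 2 days rests on that reading. Libraries are numbered by their place within a group, and a number pairs nothing across groups.

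Values are CPM, the count of a gene scaled to library size, with library sizes adjusted over all 18 libraries by the trimmed mean of M-values (TMM). In wild-type cells at 2 days the targeted gene, Dlg1, measured 57.1, 74.2, 66.4 and 83.5 CPM. The knock-out libraries at 2 days gave 51.6, 71.4, 45.1 and 48.2 CPM. At 14 days Dlg1 measured 57.7, 57.9, 53.2, 77.9 and 71.7 CPM in wild type and 56.2, 39.0, 37.3, 61.4 and 79.4 CPM in the knock-out. The groups overlapped at both times, and the difference on the log2 scale was -0.38 ± 0.19 (SE; adjusted p = 0.866) at 2 days and -0.17 ± 0.22 (adjusted p = 0.957) at 14 days. The deleted exons are not named in the labels, and counts over the whole gene can include transcripts that lack them, so the Dlg1 level does not check the genotype of a library.

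The libraries at 2 days held 14816933 to 40544439 counts with 26.1 to 49.1% from mitochondrial genes, and those at 14 days held 11133674 to 15706057 with 6.21 to 26.3%. Wild-type library 1 at 2 days stood apart in its mitochondrial share, 49.1%, and in its genes detected, 16073, the fewest of all libraries. Its depth of 40544439 counts was close to the 38400296 of knock-out library 2 at 2 days. Knock-out library 5 at 14 days stood apart because 42.9% of its counts fell on the predicted genes Gm10800 and Gm10801. The summed level of 19 markers of active stem cells was 13670 to 16121 CPM in wild type at 2 days and 3244 to 4488 CPM at 14 days. In the knock-out it was 9937 to 13408 CPM at 2 days, below the wild-type range, and 3145 to 4295 CPM at 14 days. The part of this level in the marker values was not tested. Summed stromal and endothelial markers stayed between 1.17 and 25.9 CPM, with Dcn and Lum at 0 in all libraries at 2 days. Summed immune markers were at 24.9 to 178 CPM in wild type and 23.2 to 31.4 CPM in the knock-out at 2 days. At 14 days they were at 15.7 to 33.1 and 24.9 to 36.3 CPM. Of 7 immune genes tested at 2 days, 5 were lower and 2 higher in the knock-out, with 0 called. Their median log2 difference was -0.13, and Aim2 was the lowest at -4.63 ± 0.81 (SE). The immune list also holds Lyz2, which is on the Paneth list as well. In bulk samples, fewer cells of a type and less RNA per cell cannot be told apart.

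Promoter sequences are shown first, because they show how the starts of these genes differ in E-boxes and GC boxes. RefSeq promoters on GRCm38.p6, from 250 bases before to 50 bases after a transcription start, were available for 6 of the 8 genes with 8 starts in all. Motif matches are in capitals: the E-box CACGTG, and the GC box GGGCGG or its reverse complement CCGCCC. The Bmi1 window, chr2:18676768-18677067 on the plus strand, held 1 E-box and 6 GC boxes, some of which overlap. The Lrig1 window, chr6:94700096-94700395 on the minus strand, held 2 GC boxes and no E-box. The Mex3a window, chr3:88531696-88531995 on the plus strand, held 1 GC box. The downstream Hopx start, chr5:77095218-77095517 on the minus strand, held 1 E-box and no GC box.
Bmi1: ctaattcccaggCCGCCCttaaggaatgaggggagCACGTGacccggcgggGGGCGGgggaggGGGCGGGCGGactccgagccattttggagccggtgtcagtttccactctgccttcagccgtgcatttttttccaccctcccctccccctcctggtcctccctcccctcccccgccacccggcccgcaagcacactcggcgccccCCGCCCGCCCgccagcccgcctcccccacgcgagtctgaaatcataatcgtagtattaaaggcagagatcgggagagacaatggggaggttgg
Lrig1: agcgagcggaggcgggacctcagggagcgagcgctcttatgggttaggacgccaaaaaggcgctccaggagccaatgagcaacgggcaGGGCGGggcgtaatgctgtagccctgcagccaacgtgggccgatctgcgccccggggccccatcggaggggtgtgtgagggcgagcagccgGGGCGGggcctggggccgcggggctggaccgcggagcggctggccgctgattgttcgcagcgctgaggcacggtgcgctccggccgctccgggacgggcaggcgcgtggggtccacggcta
Mex3a: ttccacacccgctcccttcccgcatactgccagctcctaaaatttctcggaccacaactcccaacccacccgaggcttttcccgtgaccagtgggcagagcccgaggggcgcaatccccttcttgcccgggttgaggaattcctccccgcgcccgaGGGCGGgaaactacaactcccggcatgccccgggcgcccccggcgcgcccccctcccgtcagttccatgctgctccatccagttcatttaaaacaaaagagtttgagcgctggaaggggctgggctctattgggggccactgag
Hopx: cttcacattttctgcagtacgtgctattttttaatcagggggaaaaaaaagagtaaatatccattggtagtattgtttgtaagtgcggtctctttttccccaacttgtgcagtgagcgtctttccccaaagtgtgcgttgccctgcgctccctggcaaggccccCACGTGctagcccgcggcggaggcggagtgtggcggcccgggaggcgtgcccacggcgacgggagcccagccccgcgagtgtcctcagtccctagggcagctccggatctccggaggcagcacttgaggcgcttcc

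Of 32544 promoters of this length, 7.17% held the E-box and 35.9% held a GC box, on either strand. The windows of Tert and of the upstream Prom1 start held 2 and 1 GC boxes. None of the 8 windows held a TCF/LEF match, searched as the form CTTTGAA, the form CTTTGAT, the form CTTTGTA and the form CTTTGTT on both strands, which 16.9% of all promoters held. The GC content of the windows ran from 50.3% at the downstream Prom1 start to 73.0% at Lrig1, against a median of 53.0% over all promoters. CpG dinucleotides numbered 35 in the Lrig1 window, 23 at Bmi1, 21 at the downstream Hopx start and 20 at Mex3a, but 4 at the downstream Prom1 start. A match describes these letters only and is not evidence of a bound factor.

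To compare levels between genes, CPM were divided by the length of each gene's merged exons in kilobases. In wild type at 2 days Lrig1 stood highest at 71.4 CPM per kb, followed by Hopx at 51.6, Prom1 at 48.6 and Sox9 at 34.8 CPM per kb. Msi1 at 9.31, Mex3a at 8.81 and Bmi1 at 6.86 CPM per kb formed a lower tier, and Tert stood last at 1.51 CPM per kb. Neighbours within a tier overlapped between libraries, while Sox9 lay above Msi1 and Bmi1 above Tert in every library of that group. In wild type at 14 days the order was Hopx at 57.3, Prom1 at 29.1, Lrig1 at 24.1, Sox9 at 16.0, Bmi1 at 4.33, Mex3a at 1.88, Msi1 at 1.09 and Tert at 0.744 CPM per kb. There only Sox9 over Bmi1 and Bmi1 over Mex3a were neighbours whose libraries did not overlap. The orders of the knock-out means were the same as in wild type at both times.

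**Figure D1:**
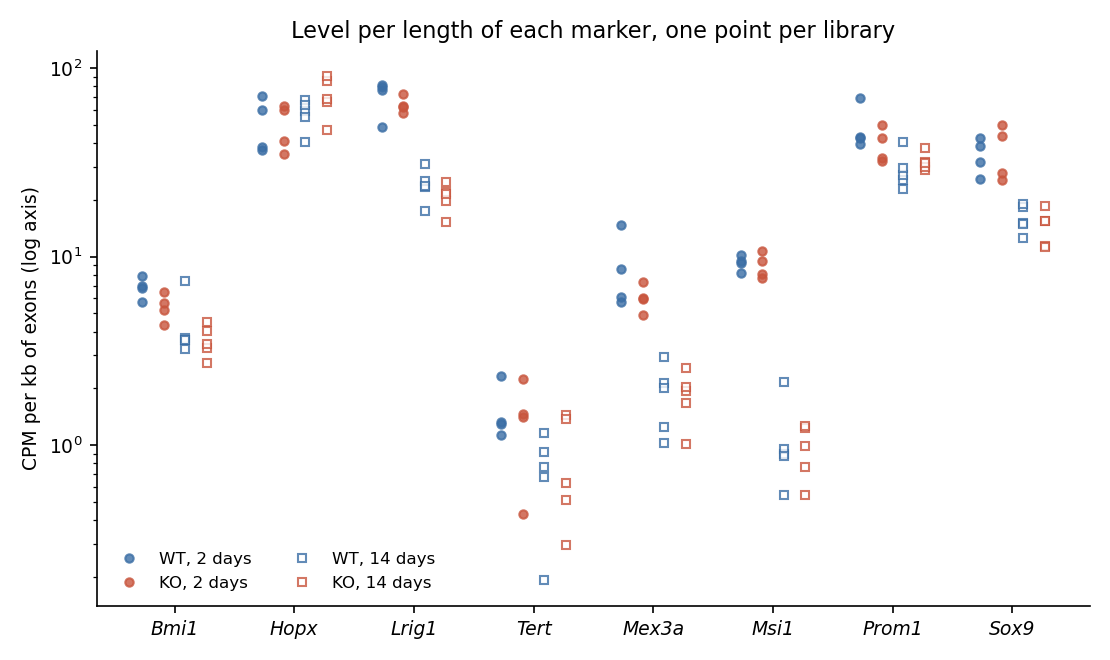
Level of each marker gene in CPM per kb of merged exons (log axis) in the 4 groups, with points for single libraries. Lrig1, Hopx, Prom1 and Sox9 stand above Msi1, Mex3a, Bmi1 and Tert in each group, and Lrig1 leads at 2 days while Hopx leads at 14 days.

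Loss of Dlg1 is compared with wild type within each time, where the study's design places the genotype question. No marker gene was called higher or lower in Dlg1 knock-out cells at 2 days. The edgeR quasi-likelihood test called 0 of the 8, against a background of 0% of the 13031 genes tested (an adjusted p under 0.05). At an unadjusted p under 0.05 it found 0 of the 8 and 4.91% of all genes. Of the 8 log2 differences, 7 were below 0, with a median of -0.13 beside 0.01 over all genes, and the values ran from -0.53 for Mex3a to 0.08 for Sox9. At 14 days 0 of the 8 were called against 0% of 13991 genes, 0 of the 8 passed an unadjusted p under 0.05 against 3.99% of all genes, and the differences split into 4 above and 4 below 0 with a median of -0.05. These unadjusted counts of 0 depended on single libraries and settings. Lrig1 at 2 days had an unadjusted p of 0.0364 without wild-type library 1, and Mex3a 0.0360 and 0.0452 without wild-type library 3 or 4. At 14 days Hopx had 0.0214 without knock-out library 5, and 0.0440 and 0.0450 without wild-type library 1 or 3, 0.0476 with upper-quartile scaling and 0.0454 with a minimum count of 50. In both comparisons the wild-type and knock-out libraries overlapped for all 8 genes. Among all genes tested, 3.6% at 2 days and 0.572% at 14 days had groups that did not overlap.

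**Figure D2:**
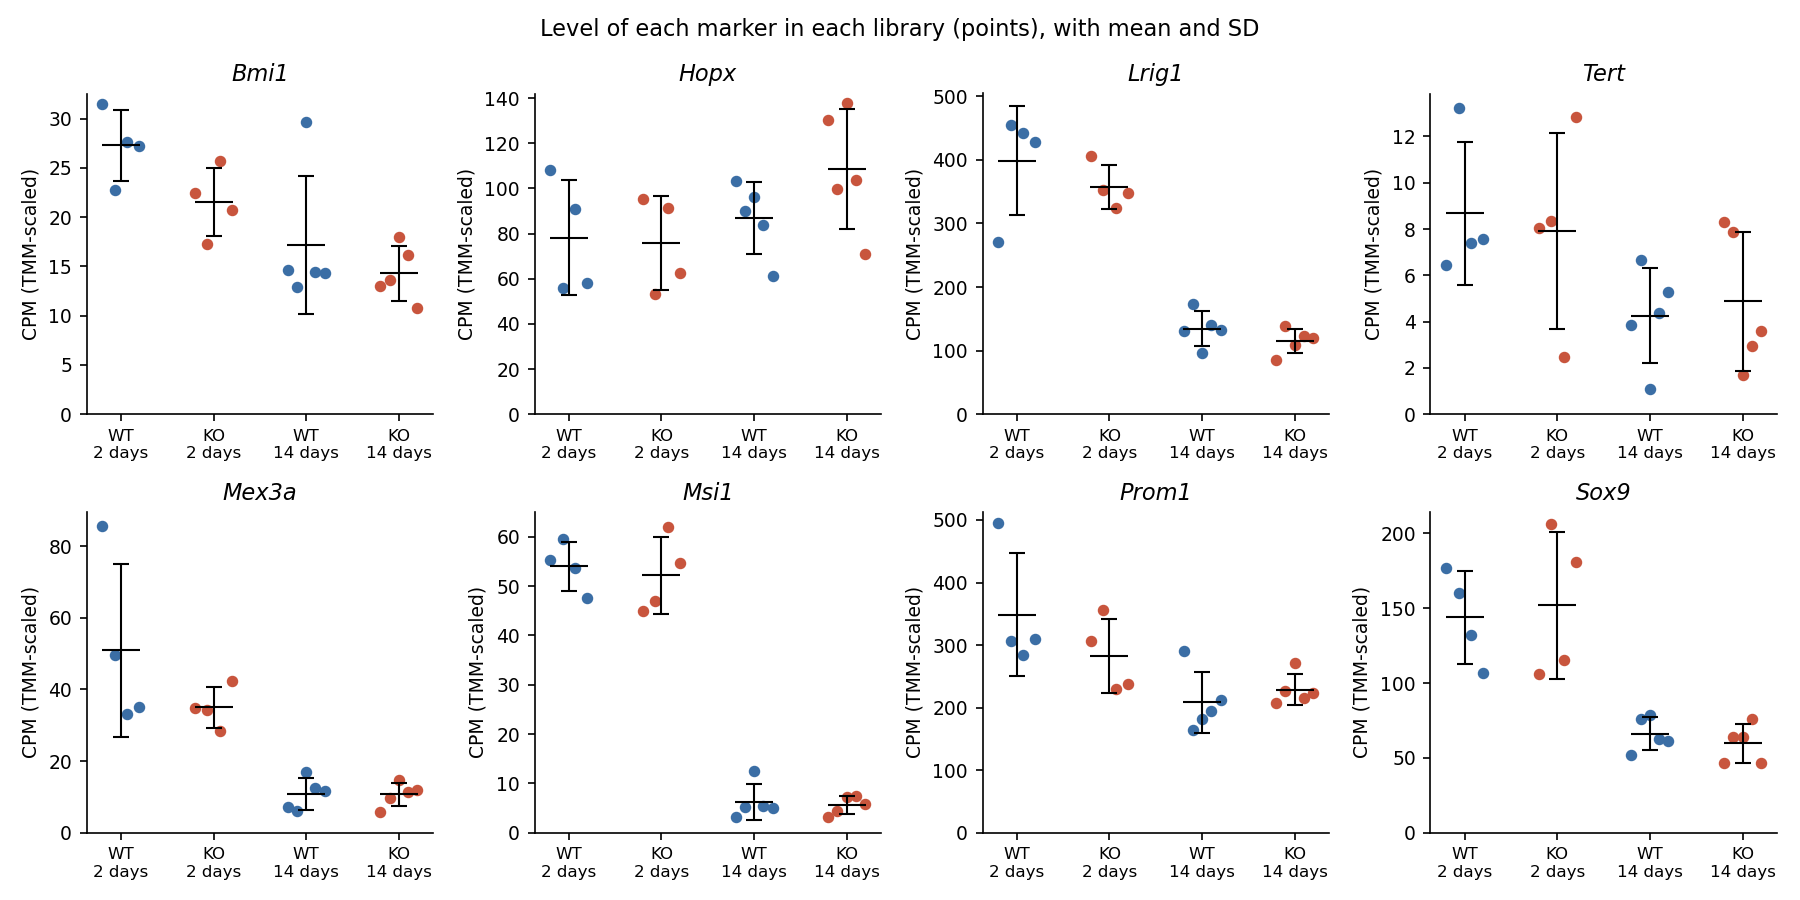
CPM of each marker gene in every library, by genotype and time, with group means and standard deviations. Wild-type and knock-out points overlap within each time for all 8 genes, and Lrig1, Mex3a, Msi1 and Sox9 are lower in every library at 14 days than in any at 2 days.

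DESeq2 and limma voom also called 0 of the 8 genes at both times, where DESeq2 called 13 of all genes at 2 days and 1 at 14 days. An absent call does not show equal levels, and the 95% intervals of the differences give the sizes these libraries leave possible.

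Bmi1, Hopx and Sox9 act in chromatin or transcription. Bmi1 encodes a subunit of Polycomb repressive complex 1, which silences genes including the cell cycle inhibitor locus Cdkn2a. Its gene (ENSMUSG00000026739) lies on chromosome 2 from 18677018 to 18686629 on the plus strand. Wild-type libraries at 2 days gave 31.5, 22.7, 27.7 and 27.2 CPM and knock-out libraries 22.5, 17.3, 25.7 and 20.7 CPM. All 4 knock-out values were below the wild-type mean of 27.3 CPM, but the highest of them exceeded the lowest wild-type value. The log2 difference was -0.33 ± 0.21 (SE; adjusted p = 0.866), and the exact two-sided permutation test gave p = 0.0571 where 0.0286 was the smallest possible. That was the smallest of the 16 exact tests run over the 8 genes and the 2 times, none of which was under 0.05, unadjusted. Without wild-type library 1 the log2 difference was -0.26.

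Bmi1 at 14 days measured 14.7, 12.9, 29.6, 14.4 and 14.4 CPM in wild type and 13.1, 13.7, 17.96, 16.1 and 10.8 CPM in the knock-out. Wild-type library 3 was the highest of the 10 and set the sign of the comparison. With it the log2 difference was -0.23 ± 0.24 (SE), and without it 0.06. That library also had the highest mitochondrial share at 14 days, 26.3%, whose part in the Bmi1 value was not tested.

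Hopx encodes a small homeodomain protein that lacks DNA binding, and its reporter marks crypt cells above the base. The gene (ENSMUSG00000059325) lies on chromosome 5 from 77086988 to 77115121 on the minus strand. At 2 days it measured 108, 55.8, 90.9 and 58.0 CPM in wild type and 95.2, 53.4, 91.5 and 62.5 CPM in the knock-out. Each genotype held a pair of high and a pair of low libraries, and the log2 difference was -0.04 ± 0.26 (SE). It turned to 0.15 without wild-type library 1. At 14 days the values were 103, 89.9, 96.3, 83.7 and 61.4 CPM in wild type and 130, 99.6, 138, 104 and 71.1 CPM in the knock-out. Here 4 of the 5 knock-out libraries were above the wild-type mean of 86.9 CPM, and library 5, which stands apart, was below it. The log2 difference of 0.35 ± 0.17 (SE, 95% interval -0.02 to 0.72) had an unadjusted p of 0.0604 and an adjusted p of 0.957, and the exact permutation test gave p = 0.190. Without library 5 the log2 difference was 0.43 with an adjusted p of 0.700. The antisense gene Hopxos covers 412 bases of Hopx exons, and it reached at most 1.04 CPM in any library.

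Sox9 encodes a Wnt-dependent transcription factor of the crypt that is needed for Paneth cells and, at high level, marks slowly dividing cells. It lies on chromosome 11 from 112782224 to 112787760 on the plus strand (ENSMUSG00000000567). At 2 days wild-type libraries gave 177, 160, 132 and 107 CPM and knock-out libraries 106, 206, 115 and 181 CPM. The knock-out values fell on both sides of the wild-type range, for a log2 difference of 0.08 ± 0.24 (SE), which was 0.19 without wild-type library 1. At the later time the values were 52.0, 76.0, 78.6, 62.4 and 61.4 CPM in wild type and 46.9, 64.3, 64.2, 76.3 and 46.5 CPM in the knock-out. These ranges overlapped over most of their length, and the log2 difference was -0.11 ± 0.17 (SE).

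Lrig1 and Prom1 encode membrane proteins. Lrig1 (ENSMUSG00000030029) restrains ErbB receptors, including the receptor of epidermal growth factor, and lies on chromosome 6 from 94604529 to 94700158 on the minus strand. At 2 days it measured 271, 454, 442 and 428 CPM in wild type and 406, 352, 325 and 348 CPM in the knock-out. Wild-type library 1, which stands apart, was the lowest of all 8, and the other 3 wild-type values were above every knock-out value. The log2 difference was -0.15 ± 0.18 (SE, 95% interval -0.55 to 0.25) with that library and -0.30 (adjusted p = 0.886) without it. At 14 days the values were 130, 174, 97.0, 141 and 133 CPM in wild type and 85.5, 138, 110, 123 and 119 CPM in the knock-out. There 4 of 5 knock-out libraries were below the wild-type mean of 135 CPM, with a log2 difference of -0.18 ± 0.18 (SE). Slc25a26 on the opposite strand shares 144 exon bases with Lrig1.

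Prom1, whose product is the pentaspan membrane protein prominin (CD133), marks stem and transit cells along the crypt base. It spans 43993620 to 44102032 on the minus strand of chromosome 5 (ENSMUSG00000029086). Its values at 2 days were 496, 306, 283 and 310 CPM in wild type and 306, 356, 230 and 238 CPM in the knock-out. Wild-type library 1 was the highest of the 8, and the log2 difference of -0.30 ± 0.21 (SE) was -0.09 without it. At 14 days Prom1 measured 290, 164, 182, 195 and 213 CPM in wild type and 208, 227, 271, 215 and 224 CPM in the knock-out. All but 1 of these knock-out values were above 4 of the 5 wild-type values, and wild-type library 1 was above all 5. The log2 difference was 0.17 ± 0.17 (SE). The antisense gene Gm16401 covers 424 bases of Prom1 exons and reached at most 2.26 CPM.

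Mex3a and Msi1 encode RNA-binding proteins. Mex3a marks a slowly cycling subset of Lgr5-positive cells and lies on chromosome 3 from 88532395 to 88541396 on the plus strand (ENSMUSG00000074480). At 2 days it measured 85.5, 49.6, 33.2 and 35.2 CPM in wild type and 34.9, 34.4, 28.3 and 42.2 CPM in the knock-out. Only the first 2 wild-type libraries lay above the knock-out range. The log2 difference of -0.53 ± 0.29 (SE, unadjusted p = 0.0942, adjusted p = 0.866) was the lowest of the 8, and it was -0.17 without wild-type library 1. With the first digit of the column-name code as a covariate it was 0.04, so its sign turned. No knock-out library shares the digit of those first 2 wild-type libraries, so they do not inform that estimate. The estimate rests on 1 wild-type against 1 knock-out library under 1 shared digit, and on 1 against 3 under the other. The 14-day values were 7.25, 5.96, 17.0, 12.4 and 11.6 CPM in wild type and 5.89, 9.69, 14.8, 11.3 and 11.8 CPM in the knock-out. The means differed by less than the spread, with a log2 difference of 0.02 ± 0.31 (SE), which was -0.07 without knock-out library 5.

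Msi1 encodes Musashi, a translational regulator first used to mark crypt progenitors. The gene (ENSMUSG00000054256) lies on chromosome 5 from 115429599 to 115455698 on the plus strand. Wild-type libraries at 2 days gave 55.2, 59.5, 53.7 and 47.6 CPM and knock-out libraries 44.9, 47.0, 62.0 and 54.7 CPM. The log2 difference was -0.04 ± 0.18 (SE, 95% interval -0.43 to 0.35), the narrowest interval of the 8 genes at 2 days. At 14 days the values were 3.16, 5.18, 12.6, 5.50 and 5.07 CPM in wild type and 3.17, 4.44, 7.17, 7.36 and 5.73 CPM in the knock-out. Wild-type library 3 was again the highest, and the log2 difference was -0.13 ± 0.37 (SE) with it and 0.28 without it.

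Tert encodes the reverse transcriptase of telomerase, and its reporter marked rare, mostly non-dividing crypt cells. It lies on chromosome 13 from 73626911 to 73649843 on the plus strand (ENSMUSG00000021611). At 2 days it measured 6.47, 13.2, 7.41 and 7.59 CPM in wild type and 8.03, 8.37, 2.46 and 12.8 CPM in the knock-out. At 14 days the values were 3.87, 6.68, 1.10, 4.38 and 5.28 CPM in wild type and 8.30, 7.87, 1.70, 2.94 and 3.59 CPM in the knock-out. Tert was the least abundant member, with 13 to 244 reads per library. The log2 differences were -0.12 ± 0.46 (SE) at 2 days and 0.22 ± 0.49 at 14 days, and the 95% intervals of -1.12 to 0.89 and -0.82 to 1.27 leave a change of 2-fold possible at both times. Without wild-type library 1 the 2-day value was -0.25.

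**Figure D3:**
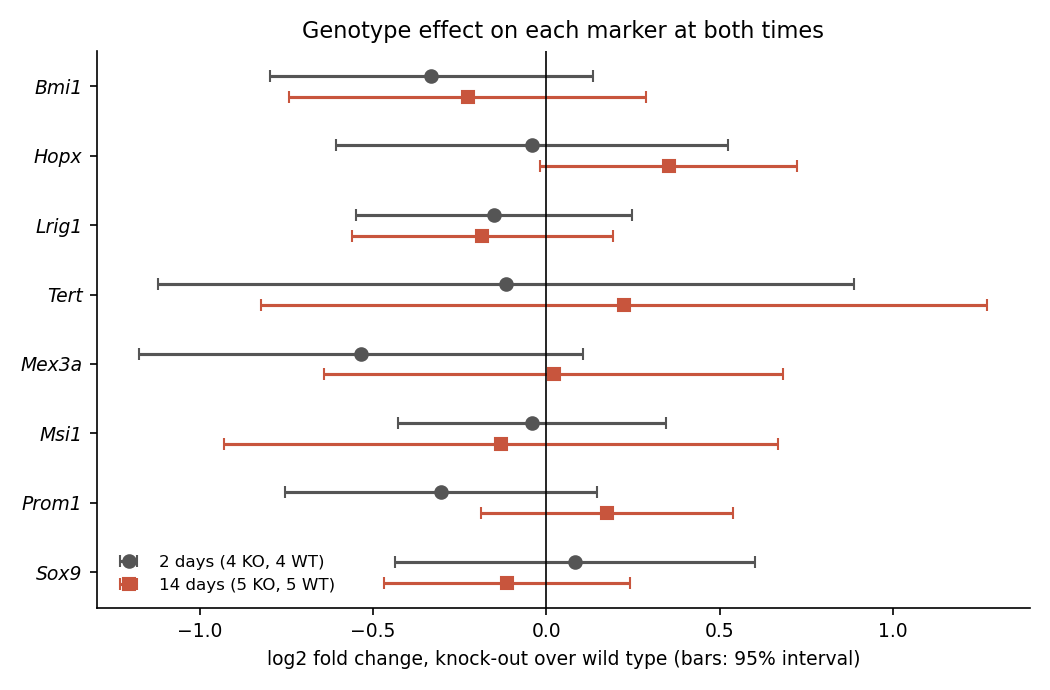
Log2 fold change of each marker gene, knock-out against wild type, at 2 days and at 14 days, with 95% intervals from the edgeR fit. Every interval includes 0, and those of Tert are the widest.

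Averaged over both times in 1 fit of the 18 libraries, 0 of the 8 genes were called, where 0.00647% of 15458 genes were, and 0 of the 8 passed an unadjusted p under 0.05, where 5.81% of all genes did. The averaged log2 difference was -0.29 ± 0.17 (SE; adjusted p = 0.829) for Bmi1 and 0.15 ± 0.16 for Hopx. Without both libraries that stand apart, Bmi1 was at -0.22, Hopx at 0.30 and Lrig1 at -0.27, the last with an unadjusted p of 0.0374 and an adjusted p of 0.656. Without wild-type library 1 at 2 days alone, Hopx was at 0.25 and Lrig1 at -0.25, with an unadjusted p of 0.0436 for Lrig1. The test of whether the genotype difference itself changed between the times called 0 of the 8 and 0% of all genes, where an unadjusted p under 0.05 was met by none of the 8 and by 5.96% of all genes. On the log2 scale this change was 0.54 ± 0.45 (SE) for Mex3a and 0.46 ± 0.27 for Prom1, the second with an unadjusted p of 0.0972. Both values rested on wild-type library 1 at 2 days, without which they were 0.18 and 0.26, and without both libraries that stand apart they were 0.12 and 0.25. Without wild-type library 1 at 14 days, Prom1 was at 0.59 with an unadjusted p of 0.0325 and an adjusted p of 0.871. At 14 days the column names carry the letters B and J, which split each genotype into 2 and 3 libraries. Hopx was higher in the knock-out within both, by 0.24 and 0.35 on the log2 scale, and Lrig1 differed by -0.47 and -0.06. Tert and Mex3a differed in sign between the letters, at 0.66 and -0.17 for Tert and 0.20 and -0.10 for Mex3a.

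Genes that work with these markers gave the same count of calls, where 0% of all genes were called at either time. Log2 differences were above 0 for 6647 of 13031 genes at 2 days and for 7133 of 13991 at 14 days. None of 22 tested Polycomb genes was called at either time, and their median log2 difference was -0.12 at 2 days and -0.04 at 14 days. Of these, Suz12, a subunit of Polycomb repressive complex 2, had the smallest p at 2 days with a log2 difference of -0.46 ± 0.18 (SE), while Yaf2 had it at 14 days at 0.41 ± 0.24. Cdkn2a, the classical target of Bmi1, had no read in any of the 18 libraries. Among 15 telomere genes none was called, and the shelterin gene Pot1a had a log2 difference of -0.64 ± 0.27 at 2 days and -0.32 ± 0.19 at 14 days. Pinx1 had the smallest p of the telomere genes at 2 days, with a log2 difference of -0.67 ± 0.25. In the ErbB list of 9 tested receptors and ligands none was called, and Ereg, which encodes epiregulin, was at 1.35 ± 0.79 and then -0.39 ± 0.39. None of 20 quiescence genes was called. The smallest p at 2 days belonged to Bmpr1a, at -0.50 ± 0.20. At 14 days it belonged to Cdkn1a, an inhibitor of cyclin-dependent kinases, at -0.31 ± 0.18. Of 19 active stem cell genes, 14 were below 0 at 2 days with none called, Lgr5 among them at -0.40 ± 0.23, and Lgr5 was at 0.08 ± 0.19 at 14 days. No marker of differentiated cells was called at either time. Of 14 enterocyte genes, 14 were above 0 at 2 days and 13 were below 0 at 14 days. Goblet genes were above 0 for 9 of 11 and then 11 of 11, and enteroendocrine genes for 5 of 12 and then 15 of 15. Tuft genes were above 0 for 9 of 11 and then 10 of 12, and Paneth genes for 6 of 12 and then 3 of 11. At 2 days 8 of 14 enterocyte, 2 of 11 goblet, 2 of 11 tuft, 1 of 12 Paneth and 0 of 12 enteroendocrine genes were higher at an unadjusted p under 0.05 (edgeR). Of all genes, 4.91% passed it in either direction. The part of these differentiated cell genes in the marker values was not tested.

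Levels in the 2-day and 14-day tables differed far more than levels between genotypes. In wild type 6 of the 8 markers were lower at 14 days by the edgeR test, and none was higher. All genes tested set a high background, with 53.4% called in either direction, 25.7% called lower and 27.7% called higher. The knock-out libraries gave 5 of 8 called lower, where 50.4% of all genes were called, 25.1% lower and 25.3% higher. Lrig1, Mex3a, Msi1 and Sox9 were lower in every 14-day library than in any 2-day library of the same genotype, in both genotypes. Groups that did not overlap were found for 42.8% of all genes in wild type and 41.9% in the knock-out. Without the 2 libraries that stand apart, 5 of 8 markers were called in each genotype, all lower in wild type, and 4 lower with Hopx higher in the knock-out. Each time is a table of its own, so days after tamoxifen, sequencing run and animal cohort cannot be told apart.

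Msi1 had the largest difference. Its mean went from 54.0 ± 4.92 CPM (SD, n = 4) to 6.30 ± 3.63 CPM (SD, n = 5) in wild type, a log2 difference of -3.12 ± 0.31 (SE; edgeR adjusted p = 4.86e-08) or 0.115 of the 2-day level. The knock-out value was -3.22 ± 0.31. Mex3a followed, from 50.9 ± 24.2 to 10.8 ± 4.42 CPM in wild type, a log2 difference of -2.24 ± 0.32 (adjusted p = 5.89e-06), and of -1.71 ± 0.32 in the knock-out. Both RNA-binding genes were lowered more than any other member in wild type. Without wild-type library 1 at 2 days, the highest for Mex3a, the 2 differences in wild type were -3.11 and -1.88.

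Lrig1 went from 399 ± 85.5 to 135 ± 27.4 CPM in wild type, a log2 difference of -1.57 ± 0.18 (SE; adjusted p = 4.42e-07), and by -1.63 ± 0.19 in the knock-out. Sox9 went from 144 ± 30.8 to 66.1 ± 11.1 CPM, with log2 differences of -1.13 ± 0.21 (adjusted p = 1.20e-04) and -1.34 ± 0.21. These 2 genes had closely similar values in both genotypes, and the change of the genotype difference was -0.05 ± 0.26 for Lrig1 and -0.21 ± 0.30 for Sox9. For comparison, Lgr5 itself had log2 differences of -1.90 ± 0.23 in wild type and -1.44 ± 0.22 in the knock-out.

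Prom1 was lower at 14 days in wild type, at -0.75 ± 0.19 (SE; adjusted p = 0.00198), while in the knock-out the log2 difference was -0.29 ± 0.19 (adjusted p = 0.211). The difference between these was the 0.46 ± 0.27 given above, which did not pass its test and was 0.26 without wild-type library 1 at 2 days. Bmi1 was called in both genotypes, at -0.67 ± 0.24 (adjusted p = 0.0213) and -0.59 ± 0.24 (adjusted p = 0.0462), with groups that overlapped. Without the 2 libraries that stand apart, neither Bmi1 call held, at an adjusted p of 0.0534 in wild type and 0.0971 in the knock-out. The wild-type call was lost as well when wild-type library 1 at 2 days or library 1, 2 or 4 at 14 days was left out, at adjusted p from 0.0531 to 0.0641. The call in the knock-out was lost in 13 of the 18 fits that left out 1 library and under all 8 other settings tried.

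Hopx went the other way. Its mean was 78.2 ± 25.6 CPM (SD, n = 4) at 2 days and 86.9 ± 16.0 CPM (SD, n = 5) at 14 days in wild type, a log2 difference of 0.14 ± 0.23 (SE), and 75.6 ± 20.8 and 108 ± 26.6 CPM in the knock-out, at 0.52 ± 0.23 (adjusted p = 0.0665). Hopx in the knock-out was called higher under 6 of 8 other settings but in only 4 of the 18 fits that left out 1 library, where it ran from 0.38 to 0.64 with an adjusted p of up to 0.216. Without the 2 libraries that stand apart it was at 0.64 with an adjusted p of 0.0171. Tert differed by -1.03 ± 0.50 in wild type (adjusted p = 0.0919) and -0.70 ± 0.51 in the knock-out, and neither was called.

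**Figure D4:**
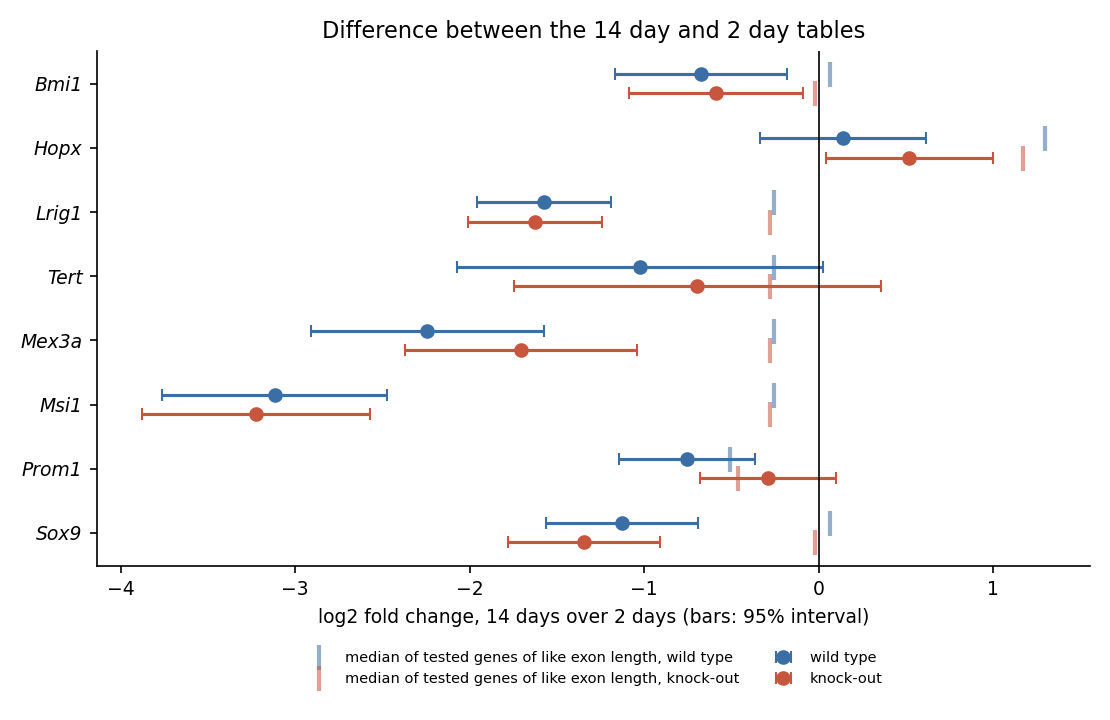
Log2 difference of each marker gene between 14 and 2 days in wild type and in the knock-out, with 95% intervals. Msi1 lies farthest below 0 and Hopx is the only marker above 0 in both genotypes.

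Among the genes tested, longer genes tended to be lower in the 14-day table, so each marker is set beside genes of like length. The genes tested were split into 5 equal classes by merged exon length. From the shortest to the longest class, the median log2 difference in wild type was 1.29, 0.54, 0.07, -0.26 and -0.51. Hopx, with 1516 bases, falls in the shortest class, while Lrig1, Tert, Mex3a and Msi1, with 5585 to 5800 bases, fall in the second longest and Prom1, with 7175, in the longest. Bmi1, with 3974 bases, and Sox9, with 4135, fall in the middle class, and Sox9 was lowered more than Prom1. Relative to the median of its own class, Hopx stood at -1.16 in wild type and -0.65 in the knock-out, so its position above 0 did not hold against genes of like length. Msi1 stood at -2.86, Mex3a at -1.98, Lrig1 at -1.32 and Sox9 at -1.20 in wild type. Bmi1 stood at -0.74 and Prom1 at -0.25, where Prom1 in the knock-out was at 0.17. The part of gene length or mitochondrial share in these differences was not tested.

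Gene lists around the markers gave both directions between the tables. Active stem cell genes were called lower for 15 of 19 in wild type, and none was called higher, with a median log2 difference of -1.63 beside 0.12 over all genes. Polycomb genes were called lower for 11 and higher for 4 of 22, and quiescence genes lower for 11 and higher for 4 of 20. Proliferation genes were called lower for 10 and higher for 3 of 22. Among markers of differentiated cells in wild type, 7 of 11 goblet, 6 of 12 tuft, 6 of 15 enteroendocrine, 5 of 14 enterocyte and 4 of 12 Paneth genes were called higher, beside 27.7% of all genes. In the knock-out these counts were 7, 4, 9, 1 and 5, beside 25.3% of all genes, and the enterocyte list had 3 genes called lower and a median of -0.69. The summed goblet level was 667 to 873 CPM in wild type at 2 days and 1406 to 5814 CPM at 14 days, and the summed Paneth level reached 14111 CPM in 1 wild-type library at 14 days. Their part in the marker differences was not tested.

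Within groups, the markers varied by different amounts. The within-group standard deviation on the log2 scale was 0.88 for Tert, 0.52 for Mex3a and 0.48 for Msi1, against a median of 0.47 over all genes tested. Hopx at 0.39, Sox9 at 0.34, Bmi1 at 0.33, Prom1 at 0.29 and Lrig1 at 0.27 varied less.

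The 8 genes did not rise and fall as a block from library to library. After subtraction of each group's mean, the 28 pairs had a median Pearson r of -0.01 over 18 libraries, and 13 were positive. The strongest positive pairs were Bmi1 with Msi1 at 0.69 and Mex3a with Msi1 at 0.65. The first fell to 0.30 without the 2 libraries farthest from the median in Bmi1. The second was 0.66 without the 2 farthest in Mex3a. Within the 2-day and the 14-day libraries the first was 0.27 and 0.75, and the second 0.13 and 0.81. At 14 days both Mex3a and Msi1 were lower under column letter B than J. Mean log2 CPM in wild type was 2.74 and 3.76 for Mex3a and 2.06 and 2.84 for Msi1. In the knock-out it was 2.94 and 3.66, and 1.95 and 2.77. Tert was higher under B, at 2.38 and 1.63 in wild type and 3.04 and 1.46 in the knock-out. The part of the letter was not tested. Bmi1 with Hopx, at 0.55, was 0.85 within the 2-day libraries and 0.46 within the 14-day libraries. Tert ran against Bmi1 at -0.77 and against Msi1 at -0.70. Within the 2-day and the 14-day libraries the former was -0.73 and -0.80, and the latter -0.34 and -0.82. The former was -0.58 without the 2 libraries farthest in Bmi1, and the latter -0.52 without the 2 farthest in Tert. These are descriptions over libraries that share depth and composition. Bmi1 also ran at -0.64 and Hopx at -0.61 with the number of genes detected, and Lrig1 at -0.77 with the mitochondrial share.

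**Figure D5:**
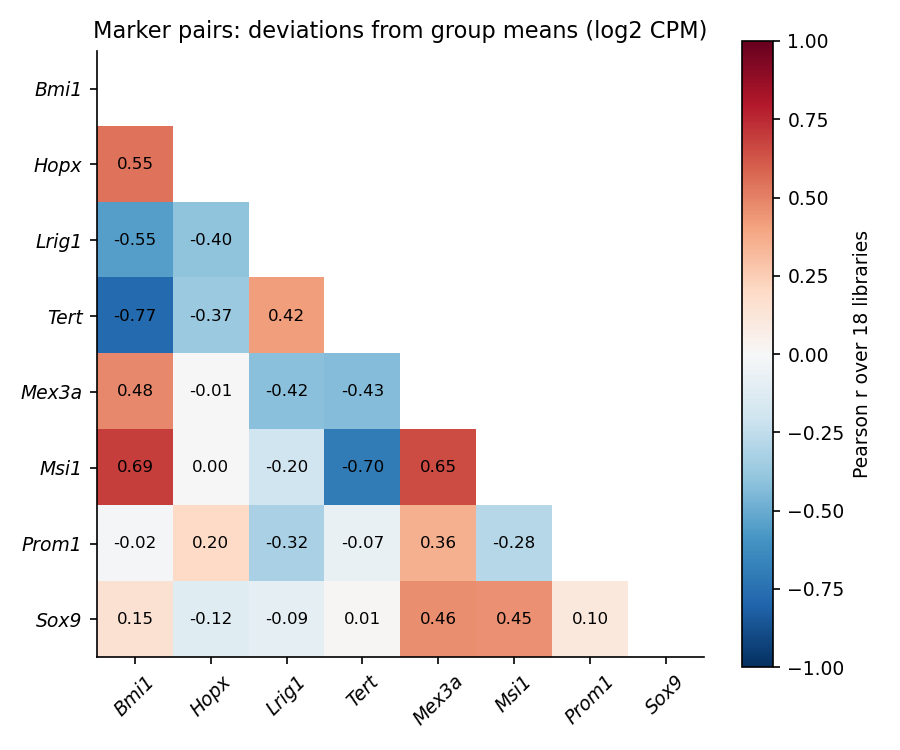
Pearson r of each pair of marker genes over 18 libraries, computed on log2 CPM after subtraction of the group mean. The highest values are 0.69 for Bmi1 with Msi1 and 0.65 for Mex3a with Msi1, and the lowest, -0.77, is that of Bmi1 with Tert.

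Lrig1 was set beside the ErbB genes, whose receptors its product restrains. Its r with the mean of 9 ErbB receptors and ligands was 0.83 (Spearman's rho 0.82). It was 0.80 without the 2 libraries farthest from the median in that ErbB mean, not in Lrig1. Within the 2-day and the 14-day libraries it was 0.79 and 0.91. Single genes ranged from 0.80 for Egf and 0.75 for Ereg to -0.14 for Areg. Egfr was at 0.54 over all libraries, but at -0.18 within 2 days and 0.83 within 14 days. Lrig1 also ran against markers of differentiated cells within 14 days, but not clearly within 2 days. Its r with the goblet mean was -0.67 over all libraries, and -0.40 without the 2 libraries farthest in that goblet mean. It was -0.09 within 2 days and -0.94 within 14 days. With the enterocyte mean it was -0.40 over all, 0.33 within 2 days and -0.88 within 14 days. With the Paneth, tuft and enteroendocrine means it was -0.34, -0.30 and -0.09 over all. Within 2 days these were -0.02, 0.17 and 0.25, and within 14 days -0.66, -0.78 and -0.54. Bmi1 had an r of -0.69 with the ErbB mean, and Sox9 had 0.62 with the active stem cell mean. These relations were picked from 120 computed between the 8 genes and 15 lists. The mitochondrial share, with which Lrig1 ran at -0.77, was not separated from the relations of Lrig1.

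Genes whose pattern over the libraries was most like each marker were named from tested genes with an average log2 CPM of 3 or more. Genes without a symbol and predicted models (Gm or Rik symbols) were left out. Zmat2, Papola and Elavl1 were nearest to Bmi1, with r from 0.91 to 0.93. Uqcrfs1, Gsto1 and Ppa1 were nearest to Hopx at 0.91 to 0.94, and Atg16l2, Rap1gap2 and Cep68 to Lrig1 at 0.92 to 0.94. Zmym3, Clasrp and Carf followed Tert at 0.86 to 0.91. For Mex3a these were Ift74, Trim56 and Asb13 at 0.82 to 0.85, and for Msi1 Ssbp3, Morc4 and Ankrd40 at 0.82 to 0.84. Tapbpl, Klhdc2 and Chn2 were nearest to Prom1 at 0.85 to 0.94. Myh9, Topors and Sox4, a relative of Sox9, were nearest to Sox9 at 0.86 to 0.89. No marker was among the 3 nearest genes of another marker, but Tert, with an average log2 CPM of 2.42, could not be named. Within 2 days the Msi1 genes were at 0.29 to 0.48, and within 14 days at 0.88 to 0.92.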

How the data were processed

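Poly(A) RNA of sorted mouse intestinal stem cells was amplified with SmartSeq and made into Nextera XT libraries without molecular identifiers, per the labels' protocols. The deposited values are whole-number read counts per gene, 1 table per time. STAR 2.4.2a, bcl2fastq 2.20.0.422 and the GRCm38 build are named in the submitters' processing notes. For the annotation, counter and strand setting nothing is stated in the sources used here, so overlapping and antisense genes are uncertain. Of 43432 identifiers, 42548 had a symbol.

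Genes passing filterByExpr (minimum count 10) were tested with edgeR 4.0.16 (R 4.3.3) by the quasi-likelihood F-test with TMM scaling and Benjamini-Hochberg adjustment over all genes tested, called at 0.05. Genotypes were compared within each time, and times in 1 fit of 18 libraries. SE was derived from the F statistic. Single genes were also compared by exact permutation on log2(CPM + 0.5). Correlations used log2 CPM with a prior count of 2, after subtraction of group means. Exon lengths came from GENCODE M21. The test was checked on simulated counts.

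All 8 genes and Dlg1 are described, with all tested members of the list of paralogues and the 3 genes most like each marker by Pearson r. From the Polycomb, telomere, ErbB and quiescence lists, genes among those with the smallest p within a time are named. Not every gene of smallest p is named, and the other lists are given mainly as counts and sums. The members and lists were chosen with earlier results of these data known. Lgr5 was added as a reference. Alternatives were RLE and upper-quartile scaling, no filter, a minimum count of 50, DESeq2 1.42.0, limma voom 3.58.1, mitochondrial genes left out, 1 joint fit for the genotype comparisons, each library left out and, chosen after seeing the data, the column-name code as a covariate and both libraries that stand apart left out. Counting error of amplified reads is not molecular error, and 0 table columns were left unused.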

Additional observations from a re-analysis of the deposited data

Results flagged for a closer look

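Of 32 sets of values, the 8 genes in the 4 groups, 3 held a library whose gap to the nearest other library took up more of the group's range than Dixon's 95% limit allows. Gaps and ranges were taken on log2 CPM. Chance alone flags about 1 in 20 such sets. Bmi1 in wild type at 14 days had its highest value, 29.6 CPM, in library 3, and the next highest was 14.7 CPM, with a gap of 0.846 of the log2 range. Lrig1 in wild type at 2 days had its lowest value, 271 CPM, in library 1, where the other libraries gave 428 to 454 CPM, a gap of 0.884 of the log2 range. Prom1 in wild type at 2 days had its highest value, 496 CPM, in the same library 1, where the next was 310 CPM, a gap of 0.842 of the log2 range. Library 1 is the one with 49.1% of counts from mitochondrial genes. Library 3 has the highest mitochondrial share of the 14-day libraries, 26.3%. The part of the mitochondrial share in these values was not tested.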

How the results depend on the processing

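No paired analysis was possible because the table columns carry no replicate numbers from the labels. Between genotypes, 0 of the 8 markers were called under each alternative run, and between the times Lrig1, Mex3a, Msi1 and Sox9 were called lower in both genotypes under each. Counts of calls over all genes moved. At 2 days they were 7 without a filter, 13 with DESeq2, 2 with 1 joint fit and 0 to 1 with each library left out. At 14 days they were 2 without a filter and 1 with DESeq2. For the average they were 40 without a filter, 7 with DESeq2, 2 without both libraries that stand apart and 1 to 2 with each library left out. For the change of the genotype difference they were 98, 13 and, with each library left out, 0 to 1. Some uncalled log2 differences changed sign, among them Mex3a at 2 days, and the cause was not tested. With the column-name code as a covariate, the 2-day values were 0.19 for Hopx, 0.10 for Tert, 0.042 for Mex3a and 0.028 for Msi1. Wild-type libraries 1 and 2 do not inform these values, since no knock-out library shares their digit. Without both libraries that stand apart, Hopx was 0.15 at 2 days, Mex3a -0.069 at 14 days, Prom1 0.032 and Sox9 0.061 on average. The change of the difference was then 0.072 for Lrig1. With limma voom, Msi1 was 0.011 at 14 days, Tert -0.077 on average, and the Msi1 change 0.076. At 14 days Mex3a was -0.036 without a filter and -0.0017 in the joint fit. With each library left out, the 2-day values ranged from -0.17 to 0.15 for Hopx, -0.49 to 0.17 for Tert, -0.15 to 0.025 for Msi1 and -0.070 to 0.22 for Sox9. The 14-day values ranged from -0.32 to 0.061 for Bmi1, -0.039 to 0.44 for Tert, -0.13 to 0.24 for Mex3a and -0.30 to 0.28 for Msi1. Averages ranged from -0.14 to 0.19 for Tert, -0.19 to 0.11 for Msi1, -0.12 to 0.037 for Prom1 and -0.10 to 0.041 for Sox9. The change of the difference ranged from -0.014 to 0.38 for Bmi1, -0.15 to 0.10 for Lrig1 and -0.28 to 0.30 for Msi1. Between the times, the median of all genes in wild type moved from 0.12 to 0.25 under upper-quartile scaling and to 0.83 without a filter, and in the knock-out from 0.06 to 0.19 and 0.82. Tert had the fewest reads of the 8 genes, 13 to 244 per library.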

Other observations

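Relatives of the marker genes were measured beside them. Between the times, Mex3d had a log2 difference of -2.77 ± 0.33 (SE) in wild type and -2.65 ± 0.34 in the knock-out, where Mex3a was at -2.24 and -1.71. Mex3c, which encodes another RNA-binding protein of the family, was at -1.11 ± 0.18 and -1.08 ± 0.18. Msi2, the second Musashi gene, was at -1.46 ± 0.25 and -1.33 ± 0.25. All of these were called lower by the edgeR test, beside 25.7% of all genes in wild type and 25.1% in the knock-out, while Mex3b was at -0.91 ± 0.52 and -0.75 ± 0.53 and was not. Sox6 was called lower in both genotypes, at -1.14 ± 0.29 and -0.95 ± 0.29, whereas Sox4 was at 0.45 ± 0.32 and -0.13 ± 0.32 and was not called. Sox5, at -0.42 ± 0.67 in wild type and -0.46 ± 0.67 in the knock-out, was not called either. The Lrig1 relatives were nearer to 0. Lrig2 was at -0.19 ± 0.27 and -0.37 ± 0.27, and Lrig3 was at -0.26 ± 0.16 in wild type and -0.58 ± 0.16 in the knock-out, where it was called. None of the 9 relatives tested was called between genotypes at either time, where 0% of all genes were called, and the largest difference was that of Mex3b at 2 days, -0.69 ± 0.60. The limits on time, table and gene length given for the markers apply to these genes as well.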
